A study of Mus musculus with 12 samples.

Results

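The stomach of mice lacking Spdef was compared with the stomach of wild type mice. The comparison used 4 of the 12 arrays of the series, chosen by their sample titles: 2 from Spdef knockout mice (KO 1 and KO 2) and 2 from wild type mice (WT 1 and WT 2). The 2 arrays from heterozygous stomach (HET 1 and HET 2) served as a check of whether a gene stood apart in KO. All mice were 16 weeks old, untreated and labelled C57BL/6, and RNA came from flash frozen stomach tissue. The labels do not give the design of the knockout allele, the part of the stomach taken and the sex of the mice. They also do not say that paired samples were different mice, so a p-value here measures the spread of these samples and may be technical. The other 6 arrays, from colon, entered only through the shared quantile normalization and the estimate of the spread. One of them, labelled colon WT 2, stood apart from the other colon arrays, with a mean correlation of 0.933 against 0.957 to 0.969 for the others. It also had an intensity of 1854 for the small intestine gene Apoa4, at most 13.64 in the other 5, and it takes part in the spread behind the p-values.

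Spdef is an ETS family transcription factor of mucus-secreting epithelial cells. In the intestine it acts late in goblet cell maturation, and in the stomach it is known from the mucous gland cells of the antrum. The mouse stomach also holds a forestomach lined by cornified squamous epithelium, which is not glandular. The glandular part is lined by surface mucous cells, with parietal, chief, mucous neck and hormone cells in its glands.

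Every value below is a level or a difference on the scale log2(intensity + 16), after quantile normalization, which understates the fold changes of dim genes. The 40th percentile of all probe sets, 6.53, was the filter level, and a group mean below it is called dim. A fold against a dim mean is given as "at least" and is computed against 6.53. Of 11807 genes, 7858 reached that level in at least 2 of the 6 stomach arrays and were tested. The stomach arrays correlated with each other at 0.969 to 0.980. The markers that define glandular stomach were near the top of the scale in all 6 arrays, with the proton pump subunit Atp4b between 14.02 and 14.27, the pepsinogen Pgc between 14.07 and 14.30 and the surface mucous protein Gkn1 between 13.93 and 14.08. Quantile normalization gives each array the same top values and so narrows differences among the brightest genes. Clps, a bright gene, had intensities of 17020 in HET 1 and 28280 in HET 2, and read 14.37 in both after it. RMA is the processing note of both KO arrays and MAS5 that of the WT and HET arrays, so processing as noted and genotype cannot be told apart. The deposited values have 1 scale in both, with trimmed means of 496.43 and 497.08 in KO and 496.09 to 497.27 in WT and HET. The share of probe sets under an intensity of 16 was 15.5% and 15.4% in KO and 14.3% to 15.5% in WT and HET. Whether the KO values were made another way could not be settled from them. Xist, the RNA of the inactive X chromosome, lay at 7.48 in KO 2 and between 12.46 and 12.77 in the other 5 stomach arrays. In colon it was low in KO 2 alone too, with an intensity of 33.47 against 5452 to 7296. The labels do not say whether arrays of the same number from both tissues share a mouse, and the fit over 12 arrays treats them as independent. The Y-linked genes Eif2s3y, Kdm5d and Uty were below the filter level in all 6.

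Creb3l4 fell in KO stomach, and it was the only gene past the threshold. Its product is a transcription factor anchored in the membrane of the endoplasmic reticulum (ER), from which cutting releases it to the nucleus. Its deposited intensity was 379.1 and 360.4 in WT, 365.8 and 350.7 in HET, and 19.96 and 40.44 in KO. On the log2 scale the level was 8.63 ± 0.04 in WT and 5.52 ± 0.45 in KO (SD, n = 2 each), and the KO arrays lay below the 4 others with no overlap. The 4 WT and HET arrays lay within 0.12 of each other. The difference of KO minus WT was -3.11 (95% interval -3.82 to -2.40, limma adjusted p = 0.0228), which is at least 4.29-fold lower with the KO mean dim. In whole tissue, fewer cells of a type and less RNA per cell cannot be told apart. Of 7858 genes tested, 1 passed, which is 0.0127%, and 289 (3.68%) had an unadjusted p under 0.05, where 393 would be reached by chance.

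The call on Creb3l4 held in 11 of 17 alternative settings and was lost in 6, with adjusted p-values from 0.000103 to 0.225 and with the KO value lower in each. It was lost without WT 1 (0.225), WT 2 (0.191), KO 1 (0.15) or KO 2 (0.0992), each of which leaves 1 array in a group, with an offset of 64 (0.0608) and with the replicate number as a block (0.0931).

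**Figure D1:**
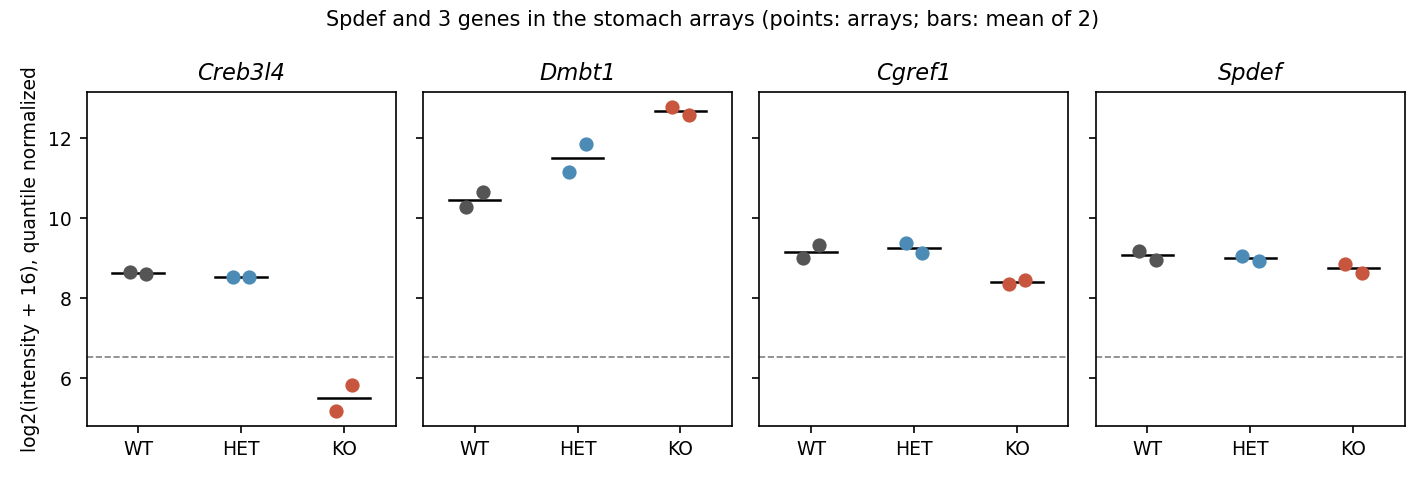
Levels of Creb3l4, Dmbt1, Cgref1 and Spdef on the log2(intensity + 16) scale (y axis) in the WT, HET and KO stomach arrays (points, with a bar at the mean of 2); the dashed line is the filter level of 6.53. Creb3l4 lay near 8.6 in the 4 WT and HET arrays and below the line in both KO arrays, Dmbt1 was highest in KO, and Spdef differed little between groups.

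Promoter windows of Creb3l4 and Cgref1 are shown because Creb3l4 is the gene that passed and Cgref1, like it, lay lower in both KO arrays. Each window runs from 250 bases before to 50 after a RefSeq transcript start (GRCm38.p6). Capitals mark the ETS core letters GGAA or GGAT on either strand, so that TTCC and ATCC are marked too, and marked stretches may overlap. The first window is chr3:90243463-90243762 and the second is chr5:30945431-30945730, both on the minus strand.
Creb3l4: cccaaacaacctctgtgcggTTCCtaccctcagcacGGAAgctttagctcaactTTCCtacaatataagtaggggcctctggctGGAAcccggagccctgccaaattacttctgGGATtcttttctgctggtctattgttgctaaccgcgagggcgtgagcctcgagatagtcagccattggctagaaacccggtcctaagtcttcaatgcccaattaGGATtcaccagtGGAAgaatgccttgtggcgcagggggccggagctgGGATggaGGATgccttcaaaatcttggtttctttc
Cgref1: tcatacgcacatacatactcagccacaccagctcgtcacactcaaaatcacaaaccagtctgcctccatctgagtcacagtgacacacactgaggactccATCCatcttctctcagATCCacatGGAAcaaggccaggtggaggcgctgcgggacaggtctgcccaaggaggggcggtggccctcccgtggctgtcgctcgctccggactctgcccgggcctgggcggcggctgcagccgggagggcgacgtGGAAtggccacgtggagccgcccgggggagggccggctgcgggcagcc
The Creb3l4 window held 9 core matches, a number reached by 10.5% of 32851 promoter windows. It is the richest of 3 Creb3l4 windows, and the other two held 8 (18.0%) and 6 (43.5%). The Cgref1 window held 4, reached by 74.9%. The longer ETS letters CCGGAA and CCGGAT, searched on both strands, were in none of the 3 Creb3l4 and 2 Cgref1 windows of the table, and 14.9% and 6.04% of all windows hold them. No match says only that these letters are not in these windows.

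Dmbt1, a secreted scavenger receptor of mucosal surfaces that binds bacteria, was highest in KO. It read 10.27 and 10.65 in WT, 11.15 and 11.85 in HET and 12.77 and 12.57 in KO, so the 3 genotypes did not overlap and the HET arrays lay in between. KO minus WT was 2.21 (95% interval 0.86 to 3.56), a 4.62-fold higher level that did not pass over all genes (limma adjusted p = 0.860). It passed when stomach was fitted alone (0.00898), when the WT and KO arrays were fitted alone (2.4e-05) and once the array labelled colon WT 2 was left out (0.00548). The difference stayed between 2.02 and 2.40 in all 17 alternatives. Cxcl17, a mucosal chemokine listed with the same gland cells, lay at 11.10 and 11.07 in WT, 11.25 and 11.37 in HET and 11.88 and 11.77 in KO, a difference of 0.74 (adjusted p = 0.999).

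Cgref1, a secreted calcium-binding protein, lay lower in KO. The WT arrays read 9.0 and 9.34, the HET arrays 9.37 and 9.13 and the KO arrays 8.36 and 8.46, with no overlap. The difference was -0.76 (95% interval -1.18 to -0.34, limma adjusted p = 0.646) and did not pass in any of the 17 alternatives. A second Cgref1 probe set gave -1.02, with KO arrays at 8.49 and 7.69. Spdef itself read 9.19 and 8.96 in WT and 8.86 and 8.63 in KO, a difference of -0.33 (95% interval -1.55 to 0.90). Its single probe set could not be placed against the deleted sequence, so it checks nothing about the labels.

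Most listed genes of the glandular mucosa, Creb3l4 and Dmbt1 counted among them, differed from WT by less than 0.5, though a smaller share did so than of all tested genes. The lists of surface mucous, antral and neck mucous, chief, parietal and enteroendocrine cells named 77 genes, of which 58 were tested. Their median difference was -0.04, against 0.01 over all tested genes. Of the 58, 50 (86.2%) lay within 0.5 of WT in either direction, where 92.6% of all tested genes did. The other 8 were Creb3l4, Gast, Gcg, Vegfb, Cgref1 and Pga5, which were lower, and Dmbt1 and Cxcl17, which were higher. Of these genes 1 passed (Creb3l4), 1 had an unadjusted p under 0.05 and was higher (Dmbt1), and 4 (6.9%) had one and were lower, beside 2.01% higher and 1.67% lower over all tested genes. Both KO arrays were below both WT arrays in 18 of the 58 (31.0%) and above them in 5 (8.6%), where 16.7% and 20.5% of all tested genes were. The 4 lower genes with an unadjusted p under 0.05 were Creb3l4, Cgref1, Pga5 and Gcg. Creb3l4, Cgref1 and Dmbt1 were listed with earlier results of these data known. They supply the higher gene and part of the 4 lower ones, so these counts describe the lists and are not a test.

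The list of 14 tested surface mucous genes had a median of 0.03, and none passed. Before normalization, the summed intensity of the 15 on the array was 132319 and 128339 in WT, 95431.5 and 137848 in HET and 118668 and 123313 in KO. The gastric mucin Muc5ac was at 0.09 (95% interval -0.32 to 0.51) and Gkn1 at 0.03 (-0.58 to 0.63). The largest differences in that list were those of the fucosyltransferase Fut2, at -0.42, and the membrane mucin Muc1, at -0.31, and in both genes the KO arrays overlapped HET. Of the 10 tested antral and neck mucous genes, 5 were above and 5 below WT, with a median of -0.10. The trefoil factor Tff2, a product of mucous neck and antral gland cells, was at 0.06 (-1.03 to 1.15). Agr2, a disulfide isomerase needed for mucin production, was at -0.21 (-0.66 to 0.23). Among the 7 chief cell genes the median was -0.02. Pga5, a pepsinogen, was the exception by size. It lay at 12.85 and 12.44 in WT, at 13.14 and 12.82 in HET and at 12.18 and 11.68 in KO, a difference of -0.72 that did not pass (limma adjusted p = 0.999). The 13 parietal cell genes had a median of -0.11, with Vegfb at -0.77 and the potassium channel subunit Kcne2 at -0.45. None of them passed.

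Hormone cell genes were described by 14 tested genes, of which 11 lay below WT, beside 48.0% of all tested genes. The list median was -0.18, and none passed the threshold. Gcg, the glucagon precursor, read 7.53 and 7.17 in WT, 7.09 and 6.98 in HET and 6.51 and 6.59 in KO. The difference of -0.80 did not pass (limma adjusted p = 0.646). Gast, which encodes the antral hormone gastrin, was split within groups. It read 9.04 in WT 2 and 8.13 in HET 2, and between 4.14 and 4.68 in WT 1, HET 1 and both KO arrays, so its difference of -2.40 rests on WT 2. The share of antrum in each piece of stomach was not tested.

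The secretory machinery was close to its WT level around Creb3l4. Of 40 tested genes for folding, translocation and stress signalling in the ER, 26 were above and 14 below WT (52.0% of all tested genes were above), the median was 0.08, and Creb3l4 alone passed. Ern2, an ER stress sensor of mucus-secreting epithelium, had the next largest difference, at 9.62 and 8.87 in WT and 8.48 and 8.22 in KO, a value of -0.89. Creb3l1, a relative of Creb3l4, was at -0.37 (95% interval -1.87 to 1.14) and the chaperone Hspa5 at 0.16 (-0.61 to 0.94). The 17 tested enzymes of mucin glycosylation had a median of 0.04, with the sialyltransferase St6galnac6 at -0.71, Galnt2, which adds the first sugar of O-glycans, at 0.45 and Galnt6 at -0.44. The other Galnt2 probe sets gave -0.004 and -0.05. Proliferation genes, 21 in number, had a median of 0.13, with Bub1 and Aurka at 0.61 and Top2a at 0.53, none past the threshold. Of 13 immediate-early genes 10 lay above WT, beside 52.0% of all tested genes, with a median of 0.31. Of the 13, 4 had both KO arrays above the WT and HET arrays, a larger share than the 8.32% of all tested genes. In that list Egr1 was at 0.99, Fos at 0.59 and Ier3 at 0.48, and none passed.

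**Figure D2:**
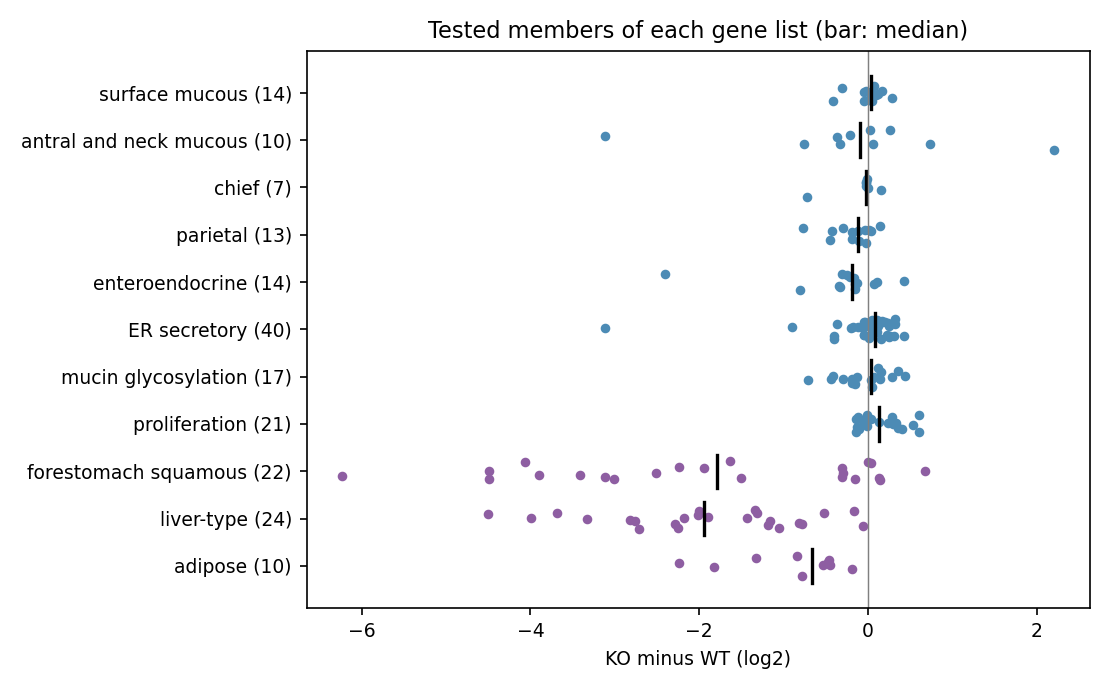
KO minus WT on the log2 scale (x axis) for each tested gene of 11 lists (rows, number of genes in brackets); points are genes and the bar is the list median. The glandular lists and the lists of secretion and proliferation have medians between -0.18 and 0.13, with Creb3l4 at -3.11, Gast at -2.40 and Dmbt1 at 2.21 farthest from them. The medians of the forestomach, liver-type and adipose lists lie farther to the left.

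Over all tested genes more were lower than higher in KO by a large amount. Of 7858 tested genes, 116 (1.48%) were lower than WT by 1 or more and 22 (0.280%) were higher by 1 or more. To be counted as apart, a gene also had to have both KO arrays beyond all 4 WT and HET arrays. This left 73 genes lower in KO (0.929%) and 10 higher (0.127%). Of the 73, 11 were in the forestomach list, 14 in the liver-type list, 3 in the adipose list and 39 in no list. The lists name only some genes of each tissue, so being in no list does not place a gene outside these tissues. Among the 39 were the cornified genes Rptn, Flg and Lce1b and the liver-type genes Cyp2c29, Plg and Bhmt. How the 39 divide between tissues was not counted. Their KO mean was dim in 60 of the 73. Genes dim in KO passed the filter through their WT and HET arrays, so these counts describe the genes and are not a test. With a single KO array the rule gave more genes, 146 without KO 1 and 125 without KO 2, against 83 with both. The 10 higher became 27 without KO 1, 23 without WT 2, 18 without KO 2 or without WT 1, and 6 without normalization between arrays. Epyc, a cartilage proteoglycan, is an example from no list, at 7.58 and 7.24 in WT, 6.57 and 6.24 in HET and 5.55 and 5.77 in KO.

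The spread among the WT and HET arrays set Creb3l4 apart from most of these genes. Over all tested genes the median range across those 4 arrays was 0.36. It was 2.73 in the forestomach list and 2.5 in the liver-type list. Of the 83 genes apart in KO, 15 had a range under 1 in WT and HET. Of all 7858 tested genes, 430 had a range over 1, so a narrow range was the usual case and did not by itself mark these 15. Creb3l4 had a range of 0.12 with a difference of -3.11. Acy1, an aminoacylase, had a range of 0.06, and lay at 8.73 and 8.75 in WT and 7.55 and 7.92 in KO, a difference of -1.01 (limma adjusted p = 0.999). Apod, a lipocalin (-1.53), the plasma protein Hp (-2.02) and Ccl20, a chemokine (-1.79, with both means dim), were also among the 15. The KO means of Apod and Hp were dim too. With dim means raised to the filter level, their differences were -0.11 and -0.94. The limit of 1 was chosen after the values were seen.

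**Figure D3:**
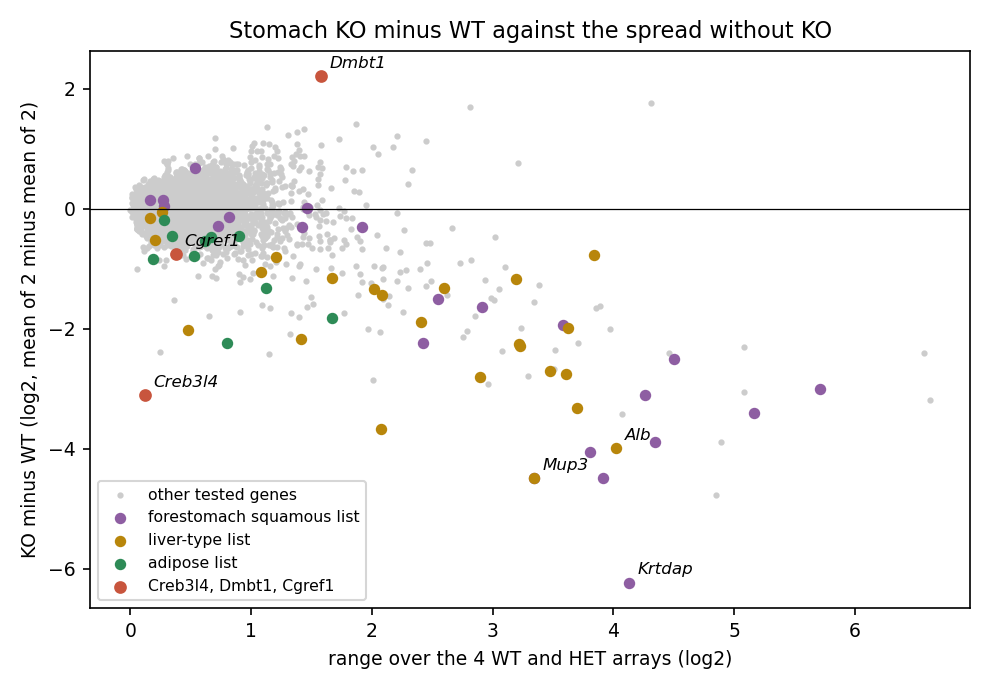
KO minus WT (y axis, log2) against the range over the 4 WT and HET arrays (x axis, log2) for the 7858 tested genes, with the forestomach, liver-type and adipose lists and Creb3l4, Dmbt1 and Cgref1 in colour. Creb3l4 has a difference of -3.11 at a range of 0.12, while Krtdap, Alb and Mup3 have large negative differences at ranges over 3.

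The genes of cornified forestomach epithelium that differed most were below the filter level in KO and varied widely among the WT and HET arrays. Krtdap, a keratinocyte differentiation protein, read 10.54 and 11.12 in WT, 12.38 and 8.25 in HET, and 5.0 and 4.20 in KO. Its difference of -6.23 (95% interval -8.49 to -3.97) was at least 19.7-fold and did not pass (limma adjusted p = 0.343). Sprr3, which builds the cornified envelope, read 8.65 and 9.78 in WT, 11.54 and 7.62 in HET and 4.43 and 5.04 in KO. Krt4, a keratin of lining squamous epithelium, read 8.58 and 8.43 in WT, 9.52 and 5.71 in HET and 4.31 and 4.57 in KO. Each of these genes was highest in HET 1 and lowest in a KO array, and HET 2 was lower than both WT arrays. Mt4, a metallothionein of squamous epithelium, read 8.51 and 8.93 in WT, 9.83 and 6.49 in HET, and 4.26 and 4.21 in KO, a difference of -4.49.

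The list as a whole followed those genes in part. Of 35 forestomach genes named, 31 were on the array and 22 were tested, and none passed over all genes. Of the 22, 17 lay below WT, beside 48.0% of all tested genes. The median was -1.79, and it was -0.51 with dim means raised to the filter level. Without the filter on dim genes it was -0.56. Of the 22, 8 had an unadjusted p under 0.05 and were lower and 1 had one and was higher, beside 1.67% and 2.01% of all tested genes. The KO mean was dim in 14 of the 22, which entered the test through arrays where they are high, so this count describes them only. The mean level of all 31 was 7.15 and 7.89 in WT, 8.69 and 6.61 in HET and 6.09 in both KO arrays. A KO array was the lowest in 14 of the 22. Of the tested members 4 were highest in KO 2, 2 in WT 2 and 16 in HET 1, and the 11 genes apart in KO were all highest in HET 1. The cornified genes Rptn, which lay at 8.39 and 9.40 in WT and 4.18 and 4.07 in KO, and the keratin Krt13, at 9.23 and 9.76 in WT and 5.98 and 5.22 in KO, showed the same order of arrays. Some other members differed less from WT, with Sprr1a at -0.30 and the desmosome gene Dsc2 at 0.15. Of the 22, 5 lay above WT, and Klf5 was the highest of them at 0.68. The members named here were picked after the values were seen, and why they differed from the rest was not tested.

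Transcripts of liver type were a second group low in both KO arrays, with another order of arrays. Alb, serum albumin, read 12.42 and 9.36 in WT, 8.39 and 11.66 in HET and 7.26 and 6.53 in KO, a difference of -4.00 (95% interval -6.39 to -1.60, limma adjusted p = 0.818). Serpina1b, a protease inhibitor of plasma, read 9.37 and 8.15 in WT, 7.29 and 8.43 in HET and 4.95 and 5.20 in KO, at least 4.68-fold lower in KO. Mup3, a major urinary protein, read 11.16 and 7.81 in WT, 8.63 and 8.57 in HET and 5.61 and 4.36 in KO, at least 7.74-fold lower. WT 1 was the highest array for each of them. In the fit, Mup3 passed without WT 2 (limma adjusted p = 0.0109) and not without WT 1, where its difference was -2.83 rather than -6.17.

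All 24 tested liver-type genes lay below WT, where 48.0% of all tested genes did. The median was -1.94, or -0.79 with dim means raised to the filter level, and without WT 1 or WT 2 it was -1.21 or -2.59. None passed over all genes, and 11 had an unadjusted p under 0.05 and were lower, beside 1.67% of all tested genes. The KO mean was dim in 15 of the 24, so this count is a description too. The mean level of the 27 genes on the array was 8.96 and 7.31 in WT, 6.91 and 8.35 in HET and 6.40 and 6.31 in KO. Of the 24, 22 were highest in WT 1, as were all 14 that stood apart in KO. Cyp2e1, a cytochrome P450, read 10.16 and 9.64 in WT, 8.74 and 9.78 in HET and 7.36 and 8.09 in KO. Cyp2c29, of the same family and in no list, read 7.88 and 6.91 in WT, 5.99 and 8.0 in HET and 4.46 and 4.63 in KO. Apoa1, an apolipoprotein also made in other organs, was bright in every stomach array and was at -0.16.

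**Figure D4:**
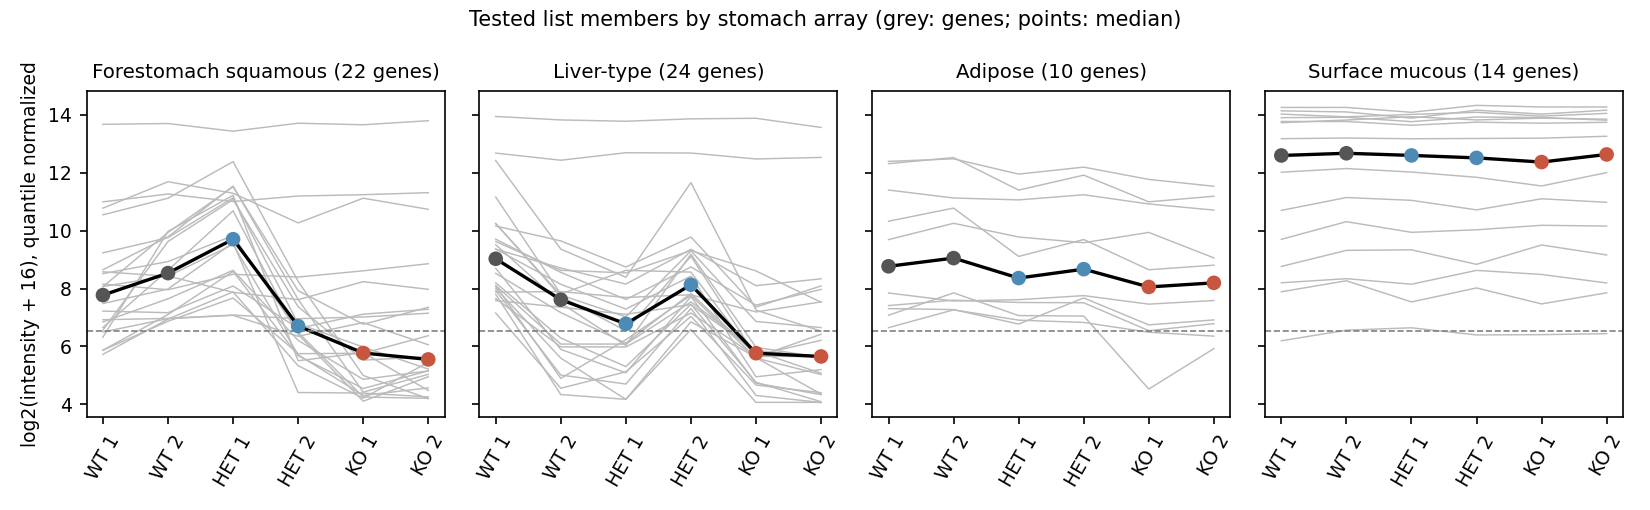
Level of each tested gene (grey lines, log2(intensity + 16)) in the 6 stomach arrays for 4 lists; points are the list median in each array, lines only join a gene's values, and the dashed line is the filter level of 6.53. Most forestomach genes peak in HET 1 and most liver-type genes in WT 1, and most of both are lowest in a KO array. The surface mucous genes are about level across all 6 after normalization, which narrows differences among the brightest genes.

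Adipose genes were lower in KO with a narrower spread. All 10 tested genes lay below WT, beside 48.0% of all tested genes, and the median was -0.66. Of the 10, 7 had both KO arrays below the WT and HET arrays, which 6.18% of all tested genes had. Adipoq, the adipokine adiponectin, read 10.32 and 10.78 in WT, 9.11 and 9.69 in HET and 8.65 and 8.81 in KO. Its difference of -1.82 did not pass over all arrays (limma adjusted p = 0.999) and passed with stomach fitted alone (0.0242). Car3, a carbonic anhydrase of fat, was at -1.32 with the same order of genotypes. Ucp1, the uncoupling protein of brown fat, read 7.08 and 7.85 in WT, 7.07 and 7.05 in HET and 4.53 and 5.93 in KO, and Cidea, a lipid droplet protein, was at -0.84. Whether the pieces of stomach differed in forestomach, liver or fat taken with them was not tested.

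Lymphoid genes divided the WT arrays. Of 6 tested B and plasma cell genes 5 lay below WT, beside 48.0% of all tested genes. The list median was -1.32, and it was 1.08 without WT 2. The B cell gene Ms4a1 read 5.30 in WT 1 and 8.52 in WT 2, and 5.32 and 5.25 in KO. Cd79b, a part of the B cell receptor, read 5.80 and 7.78 in WT and 4.88 and 4.61 in KO. Jchain, the joining chain of secreted antibody, went the other way, at 5.33 and 6.71 in WT, 8.15 and 7.84 in HET and 7.13 and 8.30 in KO, a difference of 1.70 that did not pass (limma adjusted p = 0.905).

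Products known from goblet cells, 11 tested, had a median of -0.43, and none passed. Clca1, a secreted goblet cell protein, read 9.12 and 11.39 in WT, 9.63 and 9.99 in HET and 8.94 and 8.12 in KO, a difference of -1.72 that ran from -2.85 to -0.59 over the alternatives, and a second, dimmer probe set gave -0.21. Rap1gap, a regulator of the GTPase Rap1, was at 9.46 and 9.43 in WT and 8.86 and 8.80 in KO. Klk1, a kallikrein, was highest in HET, at 9.63 and 9.5, against 5.32 and 6.07 in WT and 8.47 and 6.43 in KO. Of 8 tested genes of epithelial defence 7 lay below WT, beside 48.0% of all tested genes. The list median was -0.82, or -0.21 with dim means raised to the filter level. S100a9, a neutrophil and squamous cell protein, was at -1.44. Slpi, a protease inhibitor, read 8.15 and 8.53 in WT, 9.39 and 6.90 in HET and 6.26 and 8.02 in KO, a difference of -1.20 that ran from -2.08 to -0.32 over the alternatives. Both were highest in HET 1, as the forestomach genes were, and the part of forestomach tissue in these values was not tested.

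The 10 genes higher and apart in KO had HET means above the WT mean in each case. The rule picks genes low in WT, which favours this, and the share over all tested genes was not counted. For several of the 10 genes HET was close to KO. Uevld, related to ubiquitin-conjugating enzymes, read 6.39 and 6.63 in WT, 7.38 and 7.48 in HET and 7.64 and 7.57 in KO, a difference of 1.10 from WT, whose mean was dim, and of 0.17 from HET. Arrdc4, an arrestin-domain protein, read 7.46 and 7.35 in WT, 8.37 and 8.16 in HET and 8.42 and 8.56 in KO, and a second probe set gave 0.20. The kinase gene Lrrk1 was 1.0 above WT and 0.33 above HET. Tmem35a was 1.28 above WT and 0.09 above HET, with the WT mean dim. Sostdc1, a secreted inhibitor of BMP and Wnt signals, differed from both, by 1.18 from WT and 1.05 from HET, with KO arrays at 7.77 and 8.09, and the oxidase gene Aox3 was 1.33 above WT and 0.74 above HET. Sclt1 (1.36), Chek1 (1.05) and Mfsd3 (1.07) were each dim in WT. The other Chek1 probe sets, below the filter level in all 6 stomach arrays, gave -0.83, 0.39 and -0.09. None of the 10 passed the threshold.

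Uri1 showed the reverse of such a check. It read 9.49 and 9.34 in WT, 8.04 and 8.24 in HET and 8.21 and 8.22 in KO, so WT stood apart and KO did not. Its difference of -1.20 passed with stomach fitted alone (limma adjusted p = 0.0294), as did Txnip, which was higher by 0.77 in KO and was as high in HET, at 12.93 and 12.76.

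The number of genes called depended on which arrays gave the spread. It was 1 over all 12 arrays, 7 over the 6 stomach arrays (2 higher and 5 lower: Creb3l4, Serpina1b, Adipoq, Car3, Uri1, Dmbt1 and Txnip) and 49 over the WT and KO arrays alone (7 higher and 42 lower), where 2 residual degrees of freedom remain. Of the 49, 39 stood apart in KO, 8 were in the forestomach list, 7 in the liver-type list, 3 in the adipose list and 3 in the antral and neck mucous list (Creb3l4, Dmbt1 and Cxcl17). The rule for standing apart uses the same WT and KO arrays, so the overlap of 39 is partly built in and is not a test. The fits without a HET array called 9 genes (without HET 1) and 10 (without HET 2), of which 5 each were in the forestomach list. HET 1 and HET 2 differ widely in those genes, and their values enter the spread in the larger fits.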

How the data were processed

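The authors deposited a linear intensity per probe set for 12 Affymetrix HT Mouse Genome 430 arrays, and per the submitters' processing notes MAS5 was used for 9 and RMA for 3, with no version; background and scaling steps are not given in the sources used here. No column held log values. Of 22716 probe sets 90 were controls and were left out, and of 22626 the platform table gave 1 gene to 18003, several to 287 and none to 4336; RefSeq (GRCm38.p6) gave current symbols for 17977. Each gene was read by its probe set with the highest mean. Values were taken as log2(intensity + 16), quantile normalized over 12 arrays and filtered at the 40th percentile in at least 2 stomach arrays. The tests came from limma 3.58.1 (R 4.3.3), in a fit of group means (intensity trend, 6 residual and 3.47 prior degrees of freedom), with Benjamini-Hochberg adjustment over 7858 genes at 0.05. The number of arrays limits the precision.

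Named genes were Spdef, Creb3l4, Dmbt1, Cgref1, genes past the threshold, the 10 with the smallest p among those apart in KO in each direction, and from each list the 4 tested members that differed most; Acy1, Apod, Hp, Rptn, Krt13, Sprr1a, Dsc2, Klf5, Uri1, Txnip, Cyp2e1, Creb3l1, Hspa5, Agr2, Tff2, Apoa1, Muc5ac, Gkn1, Atp4b, Pgc and the Y-linked genes were added after values were seen. Members and lists were chosen with earlier results of these data known. The pipeline was tested on simulated data. Figures used Python 3.11.15 and matplotlib 3.10.9.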

Additional observations from a re-analysis of the deposited data

How the results depend on the processing

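The number of genes past the threshold, 1 over all arrays, was 0 with an offset of 64, 7 with the 6 stomach arrays fitted alone and 49 with the WT and KO arrays alone, and ran from 0 to 10 when 1 array was left out, with 3 without the array labelled colon WT 2. It was 1 without normalization between arrays, with an offset of 1, without a filter, with a filter at the array median, without the intensity trend and with every probe set. Where limma called 0 genes, those with an unadjusted p under 0.05 numbered 308 (offset of 64), 229 (without WT 1) and 154 (without KO 2). With the replicate number as a block it was 0, with 270 at an unadjusted p under 0.05. Deviations from the group means correlated at 0.041 between WT 1 and KO 1. They correlated at -0.372 between WT 1 and HET 1 and at 0.00209 between HET 1 and KO 1. The labels do not say whether same-numbered arrays are paired, and these values cannot settle it. The 83 genes apart in KO became 120 when HET was left out of the rule and 82 without normalization between arrays, where 79 were shared, and ran from 91 to 146 without 1 array; the last 2 choices were added after seeing the data. The Xist difference of -2.38 turned to 0.26 without KO 2, and ran from -5.02 to 0.26 over the arrays left out. Of the other genes named, 3 with small differences also changed sign: leaving out 1 array gave -0.022 to 0.074 for Gkn1, -0.0068 to 0.13 for Tff2 and -0.76 to 0.15 for Sprr1a, and without normalization between arrays Gkn1 was at -0.082 and Tff2 at -0.042; the cause was not tested. The median of the liver-type list stayed between -2.59 and -1.21 and that of the forestomach list between -2.56 and -0.56 over 17 alternatives. With 2 arrays a group, the precision is limited by their number.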

Other observations

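The 10 genes higher and apart in KO were placed on chromosomes with the RefSeq annotation of GRCm38.p6. Of them 4 (Dmbt1, Uevld, Arrdc4 and Lrrk1) are on chromosome 7, which is 40%, where 7.35% of the tested genes are. Of the 73 genes lower and apart in KO, 9 are on chromosome 7 (12.3%). These placements were looked at after the values were seen and no test was made. The 10 genes themselves depend on the arrays used, and the rule gives 6 to 27 higher genes under the alternatives.

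Lists of tissues that could travel with the stomach wall differed less between KO and WT in several cases. Smooth muscle (11 tested genes, median -0.03), fibroblast and matrix genes (10 genes, -0.15), neurons and glia (7 genes, -0.17) and exocrine pancreas (10 genes, 0.19) had no member past the threshold. Skeletal muscle genes, 5 tested, had a median of -0.65, with Acta1 at 8.88 in WT 1 and between 5.66 and 6.59 in the other 5 stomach arrays. MHC class II genes, 5 tested, were at a median of -0.58, with H2-Aa highest in WT 2 at 9.80, and the median of 11 myeloid and T cell genes was -0.22. Interferon response genes (8 tested) had a median of -0.07.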
